A study of Mus musculus with 6 samples.

Results

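Nfe2l2, Hspb1, Dnajb6 and Selenok (Selk in the deposited file) are genes of the cell's defence against oxidative and protein damage, and all 4 stand on the authors' deposited list of probe sets that were higher in muscle spindle neurons. They were taken by symbol, with every probe set the list gives for them. This made 5 of its 626 probe sets and 4 of the 570 genes named by its probe sets with 1 gene symbol. The arrays compared proprioceptive sensory neurons of the dorsal root ganglia that supply muscle spindles (MS, 3 samples) with those that supply Golgi tendon organs (GTO, 3 samples), 1 array per sample. All mice carried Egr3::WGA-cherry, PV:Cre and Thy1-lsl-YFP on a mixed C57bl/129sv background, were of both sexes and gave their ganglia between postnatal days 7 and 10. MS neurons were sorted as Cherry+YFP+ cells, about 1250 per sample, and GTO neurons as Cherry-YFP+ cells, about 725 per sample, and each sample pooled neurons of several sorts. The yellow protein depended on Cre made under PV, the parvalbumin gene, and the red one on Egr3, so a group is a sorted population enriched in its class. Before sorting, the ganglia of both groups were digested for 15 min with papain and for 15 min with collagenase and dispase, both at 37 °C.

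The 4 proteins act at different points of the stress response. NRF2, the product of Nfe2l2, is a transcription factor that KEAP1 marks for degradation in resting cells. Under oxidative or electrophilic stress it escapes and, with small MAF proteins, switches on genes of glutathione and thioredoxin metabolism through antioxidant response elements. HSPB1 is a small heat shock protein, and DNAJB6 a J-domain co-chaperone of HSP70. Both hold unfolded proteins back from aggregating, and Hspb1 is known for its high level in sensory neurons and for its induction after axon injury. In humans, variants of HSPB1 cause inherited neuropathy and variants of DNAJB6 a muscular dystrophy. Selenoprotein K lies in the membrane of the endoplasmic reticulum, where it takes part in the removal of misfolded proteins and in protein palmitoylation.

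The promoters are shown because these stress pathways act through known DNA elements. The sequences, from RefSeq on build GRCm38.p6, are the 250 bases before the start of transcription. They span chr2:75704664-75704913 on the minus strand for Nfe2l2, chr5:135887669-135887918 on the plus strand for Hspb1, chr5:29735648-29735897 on the plus strand for Dnajb6 and chr14:29968130-29968379 on the plus strand for Selenok. RefSeq had 2 start windows for Dnajb6, and the one with the lower start coordinate is given. The sequences run 5′ to 3′ in the direction of the gene, with matches to any of the searched motifs in capitals.
Nfe2l2: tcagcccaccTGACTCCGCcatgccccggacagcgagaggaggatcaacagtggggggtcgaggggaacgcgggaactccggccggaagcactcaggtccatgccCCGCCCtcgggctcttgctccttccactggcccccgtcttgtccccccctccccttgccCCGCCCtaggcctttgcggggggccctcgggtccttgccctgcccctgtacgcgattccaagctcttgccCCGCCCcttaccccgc
Hspb1: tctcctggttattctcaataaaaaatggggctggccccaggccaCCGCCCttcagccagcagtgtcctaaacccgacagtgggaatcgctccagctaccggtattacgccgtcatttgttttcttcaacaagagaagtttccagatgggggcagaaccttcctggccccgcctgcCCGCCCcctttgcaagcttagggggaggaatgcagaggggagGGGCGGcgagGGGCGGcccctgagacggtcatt
Dnajb6: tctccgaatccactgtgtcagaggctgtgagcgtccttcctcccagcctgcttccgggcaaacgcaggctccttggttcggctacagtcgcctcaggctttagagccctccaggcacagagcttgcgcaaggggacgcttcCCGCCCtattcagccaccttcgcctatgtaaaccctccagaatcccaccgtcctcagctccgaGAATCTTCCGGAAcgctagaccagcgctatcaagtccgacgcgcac
Selenok: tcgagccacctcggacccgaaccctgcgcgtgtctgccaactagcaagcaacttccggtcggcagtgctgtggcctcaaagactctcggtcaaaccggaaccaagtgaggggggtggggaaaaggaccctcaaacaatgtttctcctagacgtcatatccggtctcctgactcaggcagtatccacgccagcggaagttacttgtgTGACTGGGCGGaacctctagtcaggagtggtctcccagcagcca

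Searched on both strands were the antioxidant response element core TGACNNNGC (bound by NRF2), the heat shock element (bound by HSF1), taken as the 3 units GAA, TTC and GAA with NN between neighbours, and the endoplasmic reticulum stress element (bound by ATF6 with NF-Y), taken as CCAAT, then 9 free bases, then CCACG. The unfolded protein response element TGACGTGG, the CCAAT box and the GC box GGGCGG (bound by SP1) were searched as well. Nfe2l2 held the antioxidant core at positions -240 to -232 from the start, as TGACTCCGC. Selenok held it at -44 to -36, as TGACTGGGC, overlapping a GC box at -39 to -34. The core was present in 10.2% of the 32851 windows of the same length in the RefSeq table. Dnajb6 held the heat shock element at -46 to -34, as GAATCTTCCGGAA, a match found in 0.466% of all windows. Only exact matches were counted, so a window without one may still hold an imperfect element. The Hspb1 window held no exact match to either of these, but its stretch gaagtttccagat differs from the heat shock element only at the last base. Near matches were not searched for in the other windows, so how common they are is not known here. No window of the 4 genes held an exact match to the endoplasmic reticulum stress element, the unfolded protein response element or the CCAAT box (0.113%, 0.563% and 33.8% of all windows). The endoplasmic reticulum stress element includes the letters of the CCAAT box. GC boxes were present in all 4 windows (3 in Nfe2l2, 4 in Hspb1, 1 in Dnajb6 and 1 in Selenok) and in 32.7% of all windows. The GC content was 70.4%, 59.2%, 60.4% and 58.0% in Nfe2l2, Hspb1, Dnajb6 and Selenok, against a median of 52.4% over all windows. A match describes the letters of the window and does not show binding in these neurons.

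**Figure D1:**
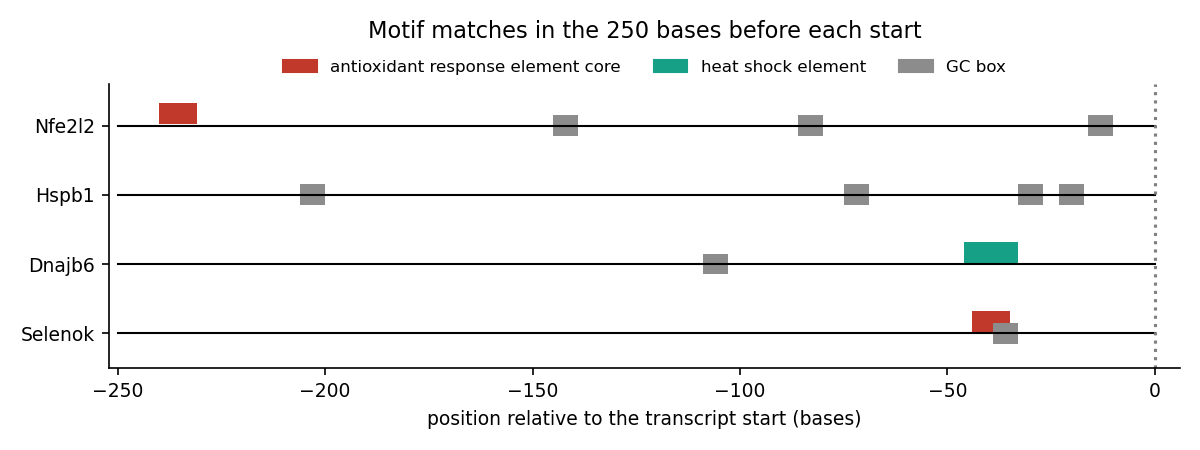
Motif matches in the 250 bases before each transcript start, with the position in bases relative to the start on the horizontal axis and 1 line per gene. The antioxidant cores of Nfe2l2 and Selenok lie at opposite ends of the window, the heat shock element of Dnajb6 lies at -46 to -34, and GC boxes occur in all 4 genes.

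Values are log2 expression per probe set, a set of short probes that together report 1 transcript or a group of them. The array signal differed between the groups, which touches every comparison below. The upper quartile per array averaged 6.83 ± 0.04 in MS and 6.14 ± 0.56 in GTO (SD, n = 3 each, exact permutation p = 0.1, the smallest that 3 against 3 arrays allow, adjusted p = 0.1 over 3 array measures). The other two measures ran the opposite way. The mean of 18 hybridization controls was 14.99 ± 0.14 in MS and 15.42 ± 0.22 in GTO, and the median of the bacterial controls 2.31 ± 0.01 in MS and 2.40 ± 0.07 in GTO (SD, n = 3 each, exact permutation p = 0.1 for both). The background is marked by 27 control probe sets for bacterial transcripts, which read between 1.89 and 2.89 on the GTO arrays. The labels call the samples biological replicates but do not say which animals went into each pool, so the SDs measure the spread between pools. In bulk RNA, fewer cells that express a gene and less RNA of it per cell cannot be told apart, and neither can the neuron class, the number of neurons per sample and the array signal.

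Probe sets outside the list have no gene names here, so any others of the 4 genes could not be examined. Any such probe set did not meet the list's thresholds for higher MS values. For Nfe2l2, the transcription factor, the list held 1 probe set (1416543_at). It read 8.11, 8.81 and 7.60 in MS samples 1 to 3, against 2.74, 2.88 and 2.83 in GTO samples 1 to 3. The groups did not overlap, and the 3 GTO readings lay within the range of the bacterial controls on the same arrays. The means were 8.17 ± 0.61 in MS and 2.81 ± 0.07 in GTO (SD, n = 3 each). Because every GTO array was under log2 4, taken here as the lowest level of reliable signal, the fold is given as a bound against that level. Nfe2l2 was at least 18.05-fold higher in MS, and the authors' deposited table gives 41.0-fold with a p-value of 0.000112. Of the 5 probe sets, that is the smallest deposited p-value. The list was selected on these p-values, so their order is not used as support.

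Hspb1, the small heat shock protein, had 2 listed probe sets, which differed in the size of the difference. The first (1422943_a_at) read 7.53, 6.19 and 6.46 in MS samples 1 to 3, against 2.23, 2.28 and 2.33 in GTO samples 1 to 3. The groups did not overlap, the GTO readings lay within the bacterial control range, and MS was at least 6.61-fold higher (6.73 ± 0.71 in MS and 2.28 ± 0.05 in GTO, SD, n = 3 each). The second (1425964_x_at) read 4.58, 3.79 and 4.49 in MS samples 1 to 3, against 2.16, 1.51 and 2.10 in GTO samples 1 to 3. Its groups did not overlap either, but 1 MS array was under log2 4, and MS was at least 1.22-fold higher (4.29 ± 0.43 in MS and 1.92 ± 0.36 in GTO, SD, n = 3 each). The authors' deposited table gives folds of 21.8 and 5.15 for the first and second probe set. An ending in x marks a probe set with probes that can match other transcripts too, so the second is the less certain readout of Hspb1. MS array 1 was the highest and MS array 2 the lowest with both probe sets.

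Dnajb6, the HSP70 co-chaperone, read 9.23, 10.11 and 8.01 in MS samples 1 to 3, against 5.36, 2.14 and 2.14 in GTO samples 1 to 3 (1429776_a_at). GTO array 1 stood well above background while GTO arrays 2 and 3 lay within the bacterial control range, so the GTO samples differed among themselves. The means were 9.12 ± 1.05 in MS and 3.21 ± 1.86 in GTO (SD, n = 3 each), a difference of 5.90 ± 1.23 on the log2 scale (SE). Even so, the lowest MS array lay 2.65 above the highest GTO array. Against GTO array 1 alone, the GTO array with the highest signal, the difference was 3.76. The authors' deposited table gives 59.8-fold with a p-value of 0.00873, the largest p-value of the 5 probe sets. The deposited file pairs this probe set with 4 RefSeq transcripts of Dnajb6, which it cannot separate.

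Selenok, the selenoprotein of the endoplasmic reticulum, read 9.64, 9.61 and 7.58 in MS samples 1 to 3, against 2.39, 2.68 and 2.98 in GTO samples 1 to 3 (1447909_s_at). The groups did not overlap. GTO arrays 1 and 2 lay within the bacterial control range, whereas GTO array 3 lay above its upper end of 2.87 on that array. With means of 8.94 ± 1.18 in MS and 2.68 ± 0.30 in GTO (SD, n = 3 each), MS was at least 30.7-fold higher. The authors' deposited table gives 76.6-fold with a p-value of 0.000888. An ending in s marks a probe set shared by several transcripts, which in this array family can belong to more than 1 gene.

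**Figure D2:**
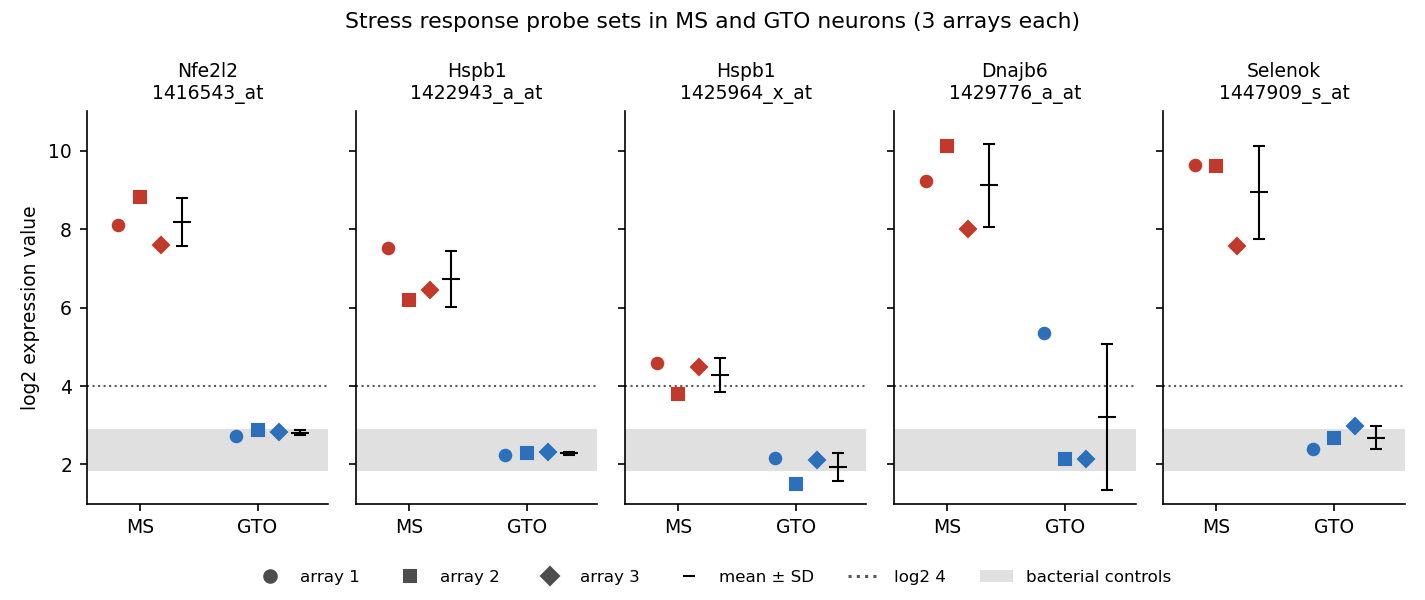
Log2 expression value of each of the 5 probe sets on the 3 MS and 3 GTO arrays, with the mean ± SD beside each group, the log2 4 level dotted and the range of the bacterial controls over all arrays shaded. In every panel the MS points lie above the GTO points, and among the GTO points only Dnajb6 on array 1, at 5.36, lies above log2 4.

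Over the 5 probe sets, 12 of 15 GTO readings lay within the bacterial control range of their own array, 2 lay above it (Dnajb6 on array 1 and Selenok on array 3) and 1 lay below it. No GTO array reached log2 4 for 4 of 5 probe sets (80%), against 207 of 626 (33.1%) over the deposited list. Over the 16256 probe sets that reached log2 4 on 3 or more arrays it was 224 (1.38%). That filter removes probe sets that are low on most arrays, and was not applied to the members or the list. The 1.38% therefore cannot be compared with the 80% and 33.1%. Of all probe sets other than controls, 64%, 66.9% and 66.7% were under log2 4 on GTO arrays 1, 2 and 3. The median of the 5 differences was 5.36 on the log2 scale, beside 3.22 over the list and 0.31 over the 16256. Every MS array lay above every GTO array for 5 of 5 member probe sets, for 592 of 626 listed ones (94.6%) and for 9.9% of the 16256. The list, and with it the members, was selected on the MS over GTO difference of these same 6 arrays, by a fold of at least 5 and a p-value below 0.08. That rule took 1.39% of all 45037 probe sets other than controls, and it fixes the direction of the members. No test of MS against GTO is therefore given for them as support. As a description only, 4 of the 5 passed the filter on low values (the second Hspb1 probe set did not). Those 4 were 2-fold or more higher in MS with an unadjusted limma p under 0.05, as were 6.48% of all tested probe sets. A probe set under log2 4 on every GTO array passes that filter only through its MS arrays, and then cannot overlap. This applied to Nfe2l2, the first Hspb1 probe set and Selenok, so their place among the tested probe sets adds nothing to the selection. None of the 4 passed a limma adjusted p of 0.05, as did 0.0185% (3) of all tested.

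Among the listed folds of the authors' deposited table, Selenok ranked 4, Dnajb6 8, Nfe2l2 18 and the first Hspb1 probe set 74 of 626. These folds use GTO readings under log2 4, so the ranks rest in part on readings below the reliable range. The median fold of that table was 9.34, with quartiles of 6.70 and 15.3. The second Hspb1 probe set ranked 616 and was the member nearest to the threshold of 5-fold. Around that threshold, the lowest fold taken was 5.01 and the highest left out at a p-value below 0.08 was 4.9998, so the second Hspb1 probe set lay just inside. The highest p-value taken was 0.0795 and the lowest left out at 5-fold or more was 0.0801, far from the members' values.

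**Figure D3:**
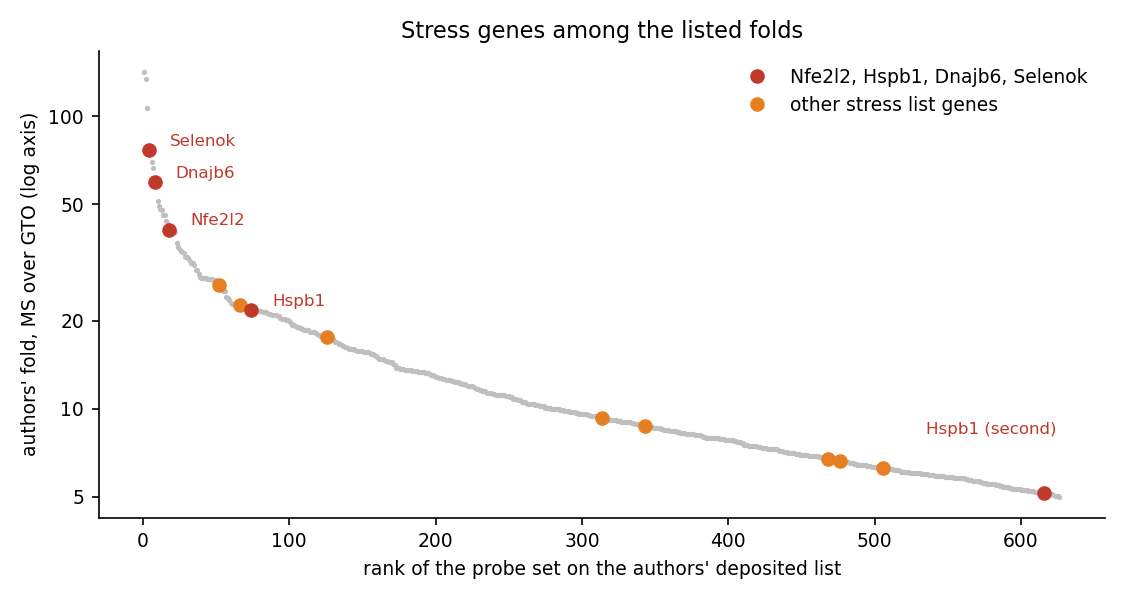
Fold of MS over GTO in the authors' deposited table (log axis) against rank for the 626 probe sets, with the 5 member probe sets and 8 other genes of the stress lists marked. Selenok, Dnajb6 and Nfe2l2 lie at ranks 4, 8 and 18, and the Hspb1 probe sets at 74 and 616. The folds of all 5 use GTO readings under log2 4.

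The members varied among the MS samples in different ways. Nfe2l2, Dnajb6 and Selenok were lowest on MS array 3, by 0.58, 1.11 and 1.37 below their MS means on the log2 scale. Over the deposited list, 324 of 626 probe sets (51.8%) were lowest on that array, which lay a median of 0.38 below the MS mean. Both Hspb1 probe sets were lowest on MS array 2 instead, 0.54 and 0.50 below their means. The SD between MS arrays was 0.61 for Nfe2l2, 0.71 and 0.43 for the Hspb1 probe sets, 1.05 for Dnajb6 and 1.18 for Selenok, around the list's median of 0.97. Relative to these spreads the shifts are single readings and were not tested. On the GTO side, Dnajb6 was highest on array 1, as were 323 of the 626 listed probe sets (51.6%).

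Scaling moved the differences by less than the spread between replicates. With quantile normalization on top of the deposited scaling, the differences were 5.23 for Nfe2l2, 4.12 and 2.12 for Hspb1, 5.86 for Dnajb6 and 6.19 for Selenok. The arrays could also be centred on the median of the probe sets with signal, an alternative chosen after the data had been seen. The values were then 4.99, 4.07, 1.99, 5.53 and 5.89 in the same order. These settings shifted the median difference of all tested probe sets by -0.29 and -0.37. Setting every value under log2 4 to 4 removes the part of the difference that lies below the reliable range. It left 4.17 for Nfe2l2, 2.73 and 0.36 for Hspb1, 4.66 for Dnajb6 and 4.94 for Selenok. Without the 2 GTO arrays of lowest signal, the differences from GTO array 1 were 5.44 for Nfe2l2, 4.49 and 2.13 for Hspb1 and 6.55 for Selenok, close to those over 3 GTO arrays. Dnajb6 was the exception, at 3.76.

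**Figure D4:**
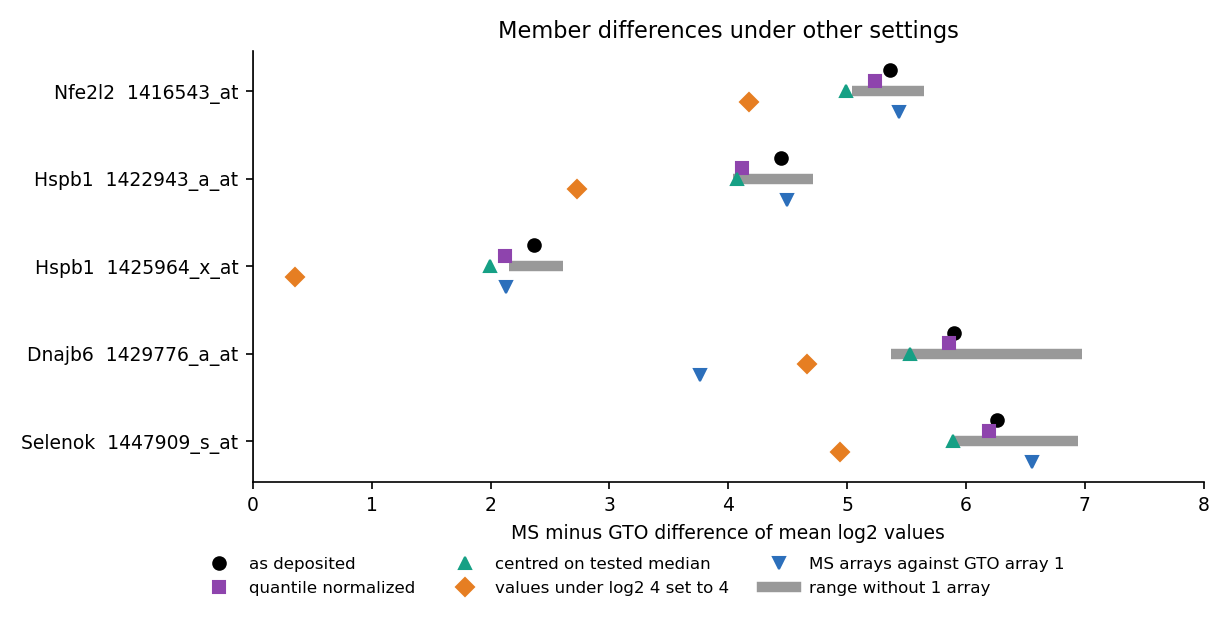
Difference of mean log2 values, MS minus GTO, for each member probe set as deposited and under 4 other settings, with grey bars for the range when 1 of the 6 arrays is left out. All differences stay above 0, which leaving out arrays could not change. The second Hspb1 probe set comes down to 0.36 with low values set to log2 4, and Dnajb6 to 3.76 against GTO array 1 alone.

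Likeness of pattern was measured as the root mean square difference over the 6 arrays between log2 values, each centred on its own mean. Each member was taken with its probe set of largest deposited fold (the first for Hspb1), and each other gene with its nearest listed probe set. Among the members so taken, Nfe2l2 and Selenok were the most alike (0.65) and Hspb1 and Dnajb6 the least (1.52). Nfe2l2 was nearest to Acsl1, which activates long-chain fatty acids (0.36), Pdk2, an inhibitory kinase of pyruvate dehydrogenase (0.42), and Pik3c3, a lipid kinase of autophagy (0.49). The median distance of Nfe2l2 from 569 other listed genes was 1.49. Hspb1 was nearest to Gpr165, an orphan receptor gene (0.23), Bbs5, a subunit of a ciliary transport complex (0.34), and Krr1, a factor of ribosome assembly (0.39), against a median of 1.22. Dnajb6 was nearest to Sec22b, a membrane fusion protein between the endoplasmic reticulum and the Golgi (0.56), Ogt, which attaches N-acetylglucosamine to intracellular proteins (0.60), and C1galt1c1, a chaperone of a Golgi glycosyltransferase (0.68), against a median of 1.85. Like Dnajb6, these 3 genes read highest in GTO on array 1, at 7.37 for Sec22b, 6.01 for Ogt and 7.63 for C1galt1c1. Choosing them for nearness to Dnajb6 favours that pattern, which 51.6% of all listed probe sets shared. Selenok was nearest to Ctnna1, alpha-catenin (0.54), Pik3c3 (0.61) and Pcmtd1, a protein with an isoaspartyl methyltransferase domain (0.64), against a median of 1.88. All of these genes were selected for being higher in MS, and the arrays shared their differences in signal, so such distances describe profiles only.

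Other genes of the same pathways could be named only where the deposited list holds them. Only the 591 listed probe sets with 1 gene symbol were counted. Of 241 genes in 9 stress lists, 12 stood on the list in this way (4.98%), of which 4 were the members, and 8 of the remaining 237 (3.38%). Over all 45037 probe sets the share on the list was 1.39%, counted per probe set and not per gene, so the shares cannot be compared and the counts do not show enrichment. Absence from the list says nothing of a gene's level, since a gene alike in both groups or higher in GTO could not stand on it. All 8 had MS arrays above every GTO array, as did 592 of all 626 listed probe sets (94.6%), and their median difference was 3.18 on the log2 scale, beside 3.22 over the list. In both respects they were close to the list as a whole. Of these 8, 1 was under log2 4 on all GTO arrays, against 4 of the 5 member probe sets (the difference was not tested), and 5 were highest in GTO on array 1.

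Of 13 regulators of the KEAP1 and NRF2 system, 2 were listed, Nfe2l2 itself and Bach1. BACH1 is a repressor that competes with NRF2 for the antioxidant response element. Bach1 read 9.03, 9.19 and 7.92 in MS samples 1 to 3, against 7.74, 2.99 and 3.00 in GTO samples 1 to 3. The groups came within 0.18 of each other, because GTO array 1 lay close to MS array 3. Of 32 NRF2 target genes, 2 were listed. Gstm1, a glutathione transferase, measured 6.39 ± 1.61 in MS and 3.67 ± 0.89 in GTO, and Abcc1, an exporter of glutathione conjugates, 6.78 ± 1.25 in MS and 4.14 ± 1.00 in GTO (SD, n = 3 each). Of 32 antioxidant enzymes, 1 was listed. Gpx8, a glutathione peroxidase family member of the endoplasmic reticulum, read 8.55, 6.38 and 5.87 in MS samples 1 to 3, against 3.49, 4.36 and 3.57 in GTO samples 1 to 3, a gap of 1.52 between the groups.

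Among chaperones, Hspb1 was the 1 listed gene of 10 small heat shock proteins and Dnajb6 the 1 listed gene of 43 J-domain proteins. Of 45 genes of HSP70, HSP90, chaperonins, their co-chaperones and heat shock factors, 1 was listed. Trap1, the mitochondrial HSP90, read 9.38, 9.17 and 6.55 in MS samples 1 to 3, against 4.19, 5.18 and 2.23 in GTO samples 1 to 3. It varied widely in both groups (8.37 ± 1.58 in MS and 3.87 ± 1.499 in GTO, SD, n = 3 each). None of 24 early response genes known to follow tissue dissociation, such as Fos, Jun and Hspa1a, stood on the list.

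Of 24 selenoproteins, Selenok and Selenos were listed. Selenoprotein S is, like selenoprotein K, a membrane protein of the endoplasmic reticulum and works with it in the degradation of misfolded proteins. Selenos read 7.62, 8.95 and 8.59 in MS samples 1 to 3, against 7.13, 5.46 and 4.32 in GTO samples 1 to 3. In contrast to Selenok it was above log2 4 on all 6 arrays, with a gap of 0.49 between the groups and a difference of 2.75 ± 0.91 (SE, n = 3 each). Of 42 genes of endoplasmic reticulum degradation and the unfolded protein response, 4 were listed, both selenoprotein genes, Ppp1r15b and Creld2. Ppp1r15b, which directs the dephosphorylation of the initiation factor eIF2α, read 10.35, 9.99 and 8.68 in MS samples 1 to 3, against 7.71, 3.72 and 3.41 in GTO samples 1 to 3. Creld2, an endoplasmic reticulum protein induced by unfolded proteins, was at least 5.12-fold higher in MS, with 6.36 ± 0.94 in MS and 3.14 ± 0.59 in GTO (SD, n = 3 each).

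**Figure D5:**
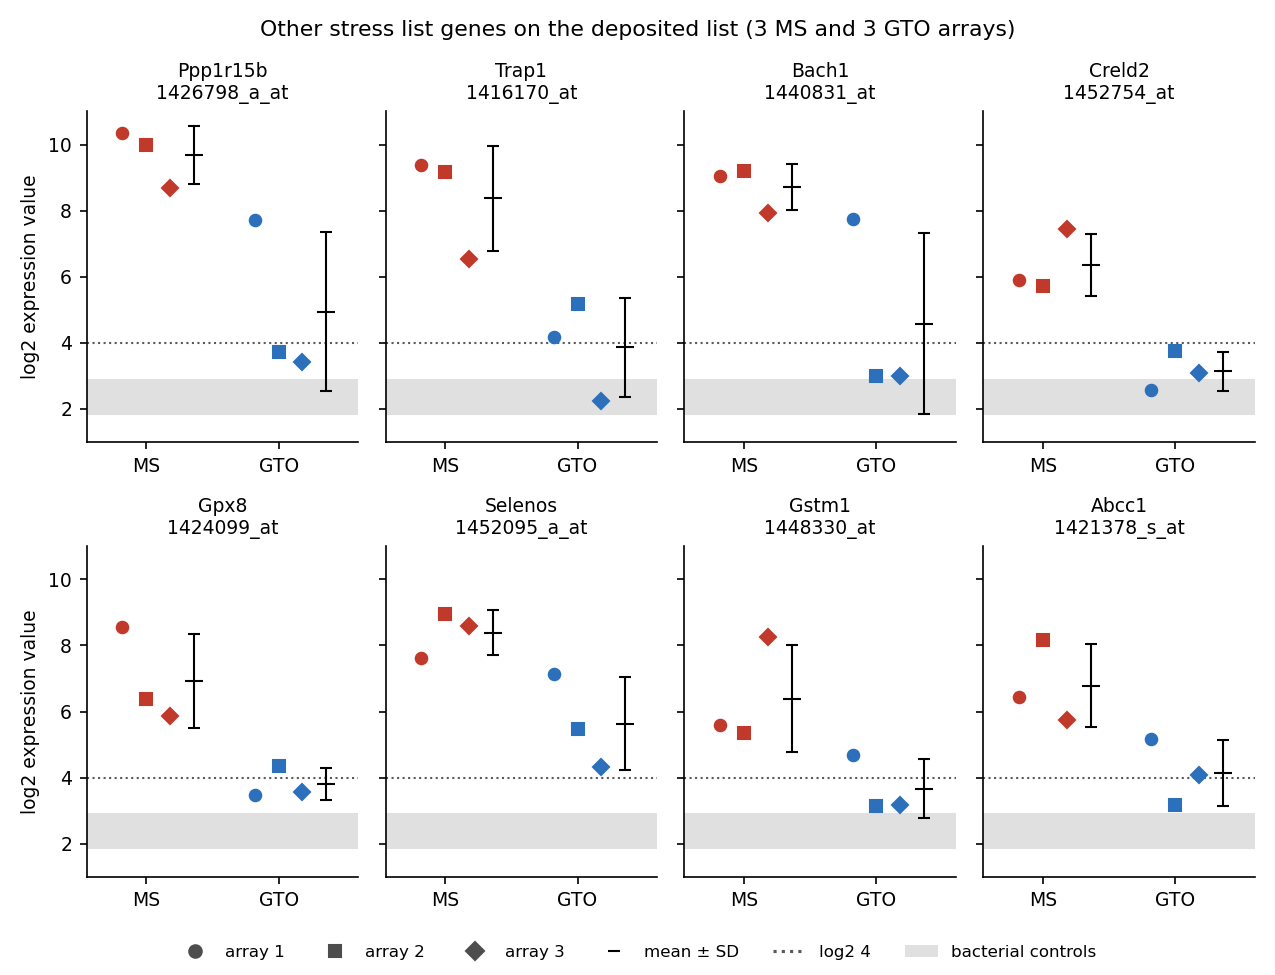
Log2 expression value of 8 other genes of the stress lists on the 3 MS and 3 GTO arrays, drawn as for the members. GTO array 1 lies far above GTO arrays 2 and 3 for Ppp1r15b (7.71) and Bach1 (7.74), and only Creld2 lies under log2 4 on all 3 GTO arrays.

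Markers of cell types were checked in the same way, with 5 of 67 genes in 10 lists on the deposited list (7.46%). The 1.39% over all probe sets is counted per probe set and not per gene, so the 2 shares cannot be compared. Of 8 proprioceptor markers 1 was listed, Whrn, at 4.96 ± 1.73 in MS and 2.31 ± 0.03 in GTO (SD, n = 3 each), and none of 4 MS or GTO subclass markers. The remaining proprioceptor markers, Pvalb among them, were not analysed here, so the labelled cell type could not be checked further. Of 10 Schwann cell markers 1 was listed, Mbp, at 6.40 ± 0.68 in MS and 2.82 ± 0.44 in GTO, and of 8 fibroblast markers 1, Sparc, at 8.56 ± 1.16 in MS and 3.61 ± 0.55 in GTO (SD, n = 3 each). Plxnc1, 1 of 8 nociceptor markers, was listed with 2 probe sets, at 9.06 ± 1.17 in MS and 4.64 ± 1.16 in GTO with the first (1450905_at) and 6.97 ± 0.98 in MS and 4.26 ± 1.66 in GTO with the second (1423214_at, where the groups overlapped). Of 6 cutaneous mechanoreceptor markers 1 was listed, Gfra2, at 12.30 ± 0.12 in MS against 9.75 ± 1.85 in GTO (SD, n = 3 each). The list held none of 7 satellite glia, 7 macrophage, 6 endothelial and 4 erythroid markers. Every listed marker was thus higher in MS like the members, as the selection of the list requires, and their part in the members' differences was not tested.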

How the data were processed

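RNA of 6 sorted pools was amplified, labelled with biotin and hybridised to 1 array each, per the labels' protocols. The deposited log2 values cover 45101 probe sets, and GCRMA and Partek are named, without version, in the submitters' processing notes. The second deposited file, by the authors, lists 626 probe sets, each with a p-value below 0.08 and a linear ratio (fold of MS divided by GTO) of at least 5, per the file headers. Applied here, that rule with an equal-variance test returned the same 626, and recomputed folds deviated by at most 2.1e-05. The genome build is not given in the sources used here, nor is an array annotation, so only listed probe sets have gene names, updated by Entrez identifier (584 matched RefSeq). The members and gene lists were chosen with earlier results of these data known. After leaving out 64 control probe sets, limma 3.58.1 in R 4.3.3 (lmFit, eBayes, no covariate, two-sided, Benjamini-Hochberg) was fitted to the 16256 probe sets that reached log2 4 on 3 or more arrays, as background for the members, and tested on simulated data. Folds are lower bounds against log2 4 where every GTO array lay under it. Named genes were the members, the listed genes of the stress lists, the listed cell type markers, and the 3 nearest listed genes of each member. Listed genes were counted from the 591 listed probe sets with 1 gene symbol, so Ftl1 was named but not counted. Alternatives were 3 rescalings, a floor, other filters, an intensity trend, group medians, another background level, the replicate number as a block, and leaving out arrays. Precision is limited by the number of arrays.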

Additional observations from a re-analysis of the deposited data

How the results depend on the processing

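Every member difference and the median of the 5 kept its sign (MS higher) under every setting that was run. The 5 member probe sets had no overlap under each, except with the floor at log2 4 (4 of 5, as the lowest MS reading of the second Hspb1 probe set was below it). Leaving out arrays cannot create overlap or reverse a sign where all 6 arrays show no overlap. The members were also selected for higher MS values, so the kept sign and separation are no independent evidence. The floor moved Nfe2l2 to 4.17, Hspb1 to 2.73 and 0.36, Selenok to 4.94 and the median to 4.17. Without GTO arrays 2 and 3, Dnajb6 moved to 3.76 and the median to 4.49. Leaving out 1 array at a time, the median lay between 5.04 and 5.65, and no member difference moved by more than its spread. With the highest bacterial reading (2.89) as background in place of log2 4, the bounds were at least 39.0-fold for Nfe2l2 and 14.3-fold and 2.64-fold for Hspb1. Selenok has no such bound, since a bound is given only where every GTO array lies under the background level, and 1 lay above that reading.

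Counts over all probe sets, which serve as background, moved more. The 3 probe sets past the limma adjusted threshold became 0 with the floor, with centring over tested probe sets (chosen after the data had been seen), without GTO arrays 2 and 3, with the intensity trend, with the replicate block, and without any 1 array (0 to 0). They became 12 with no filter and 11 with the filter at log2 6. The 1053 at least 2-fold with MS higher became 700 under quantile normalization and 680 to 1500 without 1 array. The 626 of the list's rule became 400 under quantile normalization and 376 without GTO arrays 2 and 3. The 1610 without overlap became 1068 under quantile normalization, 940 with centring over tested probe sets, 4570 without GTO arrays 2 and 3, and 2156 to 3292 without 1 array, as fewer arrays separate more easily. Centring on the median of all probe sets, most of them at background, shifted the tested median by 0.11. Same-numbered samples share only a number. The correlations of their deviations from the group means were -0.06, 0.10 and 0.11, not every sample correlated best with its own number, and the replicate block moved the looser count to 1169. In a balanced design the block cannot change a mean difference (5.36 for Nfe2l2 with and without it). The causes of these changes were not tested beyond what each setting removes. The number of arrays limits what can be told: GTO readings at background give lower bounds only.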
